A study of Saccharomyces cerevisiae with 26 samples.

Results

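The 36 genes described here make, take up, move, store or control ergosterol, the sterol of yeast membranes. They were chosen by symbol from a list of sterol genes, with no threshold on a measured value but with earlier results of these data known, out of 5445 Saccharomyces cerevisiae genes that could be tested. Each of the 36 was read by 1 probe set, so no gene rests on an average of probe sets. They fall into 10 genes of the mevalonate route up to squalene, 5 enzymes that use molecular oxygen, 2 electron carriers, 8 later enzymes or helpers that use no oxygen, 3 genes of uptake and transport, 3 of sterol ester formation or acetylation, and 5 regulators.

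The study grew haploid S288C MAT-alpha yeast at 32.5 °C and pH 5.5 and measured RNA on 26 Affymetrix arrays in 9 groups. Cells held in 3 mm calcium alginate beads, in a reactor fed with 100 g/L glucose at 6 L/h, gave 4 arrays each at days 1, 3 and 5 and 3 arrays each at days 10 and 17, 18 bead arrays in all. A further 2 arrays are of day 0, which one label places before immobilization and another directly after it. Free cells gave 2 arrays of a chemostat diluted at 0.15 per hour with 1 g/L glucose, 2 of stationary phase at 72 h and 2 of log phase at 12 h of a batch culture begun with 10 g/L glucose. All groups share the one strain, and the batch and chemostat cultures were made anaerobic with nitrogen. No label states the oxygen supply of the bead reactor or an addition of sterol to any medium. RNA was taken from beads by another extraction than from free cells, so extraction and growth in beads cannot be told apart. Nothing in the labels says that replicate arrays come from separate cultures, so the p-values measure the spread between these arrays, which may be technical.

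Ergosterol synthesis runs from acetyl-CoA over mevalonate to squalene, and from squalene onward several steps consume molecular oxygen. Yeast without oxygen therefore cannot complete the route and depends on sterol taken up from outside, for which it uses membrane transporters that are little expressed with oxygen. Upc2 and Ecm22, a pair of related transcription factors, bind a shared promoter element in synthesis and uptake genes and respond to low sterol. Strain S288C carries a transposon insertion in HAP1, a haem-dependent regulator of sterol genes.

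The deposited value is a ratio of a probe set's signal to its own median over the 26 arrays, so 0 on the log2 scale is that median and levels of different genes cannot be compared. A gene is called changed where limma's Benjamini-Hochberg adjusted p over the 5445 genes is under 0.05 and the log2 fold change is at least 1 in size. Bead cells are the mean of days 1, 3, 5, 10 and 17 with equal weight. Counts at an unadjusted p under 0.05 are a looser measure, and their share over all genes was not counted. Replicates spread unevenly: the median SD over the 36 genes was 0.41 on day 1, 0.28 on day 3 and 0.17 on day 17, against 0.11 in the chemostat, 0.27 in stationary phase and 0.12 in log phase. The 3′ minus 5′ signal of 8 control genes ranged from -0.26 to 0.49 on day 1 and from 0.17 to 0.34 on day 17, against -0.36 to -0.30 in the chemostat, -0.14 to 0.14 in stationary phase and -0.47 to -0.25 in log phase. The poly-A spike controls averaged 2.55 (log2) in stationary phase, against -0.39 in log phase, and the dap spike fell below -3 on 3 bead arrays, day 10 replicate 3 and day 17 replicates 2 and 3. The part of these differences in the results below was not tested.

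**Figure D1:**
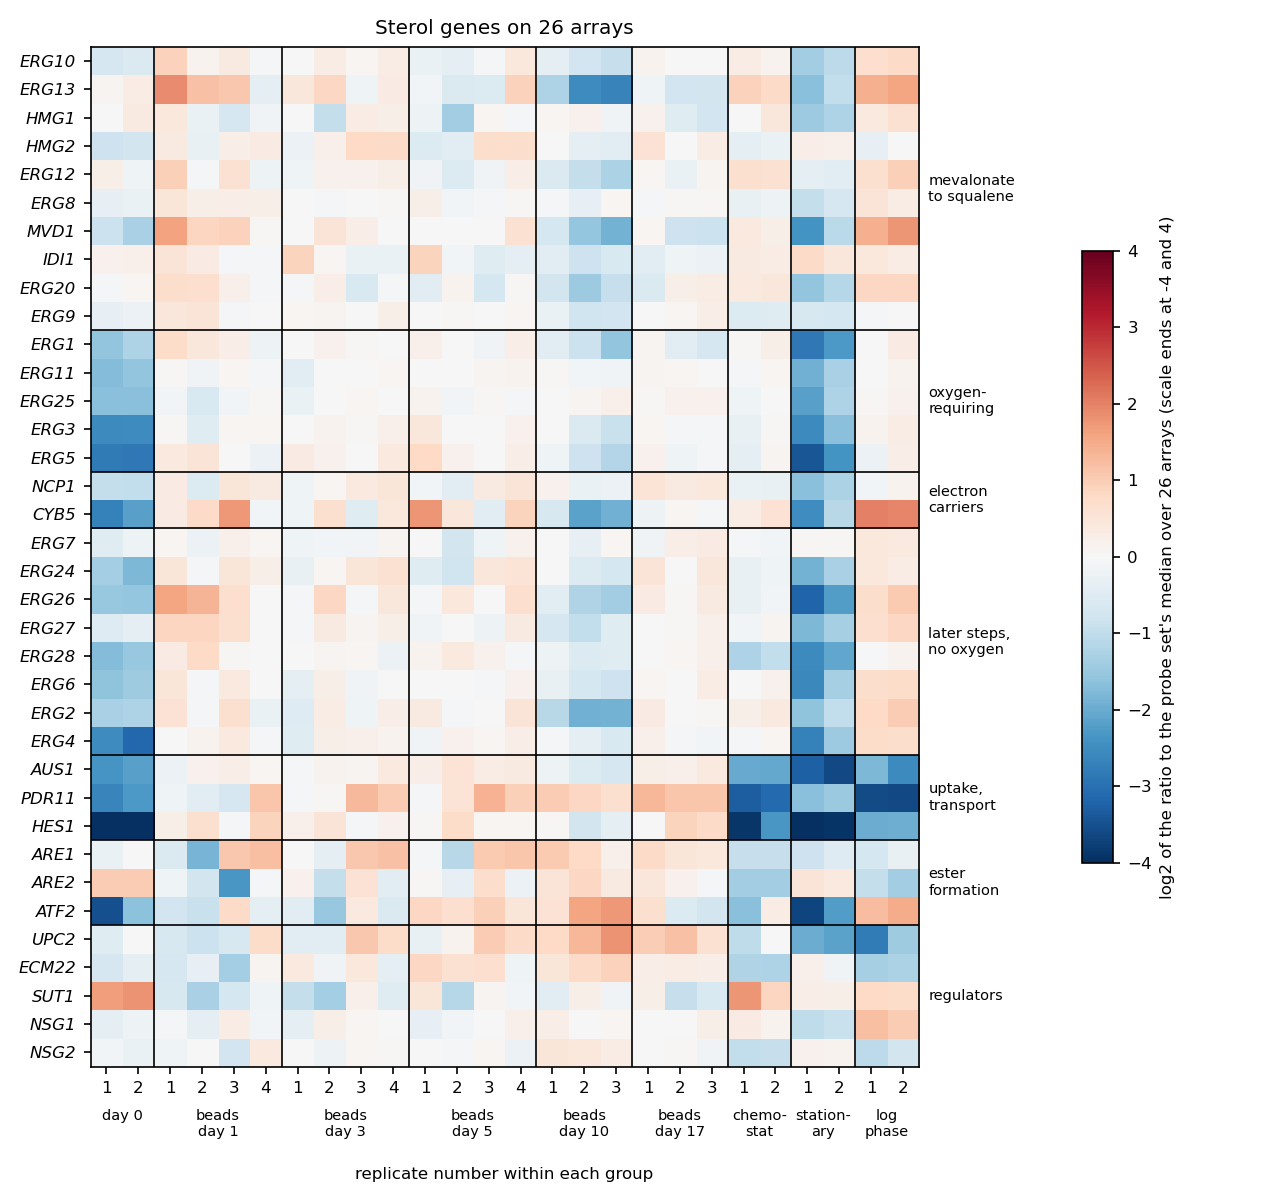
Log2 ratio of the 36 sterol genes (down the page, by role) on each of the 26 arrays (across, by group and replicate), with red above and blue below the median of the probe set. Stationary-phase and day 0 columns are blue for most synthesis genes, and the 3 uptake rows are blue in every free-cell and day 0 array and near or above 0 in beads.

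The 3 uptake and transport genes rose in beads against every free-cell state. AUS1 and PDR11 encode ABC transporters that bring sterol into anaerobic cells, and HES1 encodes an oxysterol-binding protein of the family that moves sterols between membranes. AUS1 ranged from -0.69 to 0.53 with a median of 0.18 over the 18 bead arrays, against -2.02 and -2.06 in the chemostat, -3.28 and -3.62 in stationary phase, and -1.79 and -2.54 in log phase. PDR11 ranged from -0.68 to 1.39 with a median of 0.88 in beads, against -3.29 and -3.12 in the chemostat, -1.67 and -1.48 in stationary phase, and -3.57 and -3.60 in log phase. HES1 ranged from -0.74 to 0.90 with a median of 0.12 in beads, against -3.88 and -2.31 in the chemostat, -4.18 and -3.92 in stationary phase, and -1.97 and -1.95 in log phase. For all 3 genes the lowest bead array lay above the highest free-cell array, which held for no other of the 36, or 8.33% of them, and for 2.09% of all genes tested.

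Against log phase, AUS1 was higher in beads by 2.24 ± 0.18 (log2 fold change ± SE, limma adjusted p = 8.81e-09), PDR11 by 4.24 ± 0.37 (adjusted p = 2.41e-08) and HES1 by 2.17 ± 0.31 (adjusted p = 1.41e-05). Against the chemostat the differences were 2.12 ± 0.18, 3.86 ± 0.37 and 3.31 ± 0.31, and against stationary phase 3.52 ± 0.18, 2.22 ± 0.37 and 4.26 ± 0.31, in the same gene order and all called. Beads are shared by the 3 comparisons, which are therefore not independent of each other. In bulk RNA, fewer cells that carry a transcript and less transcript per cell cannot be told apart.

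**Figure D2:**
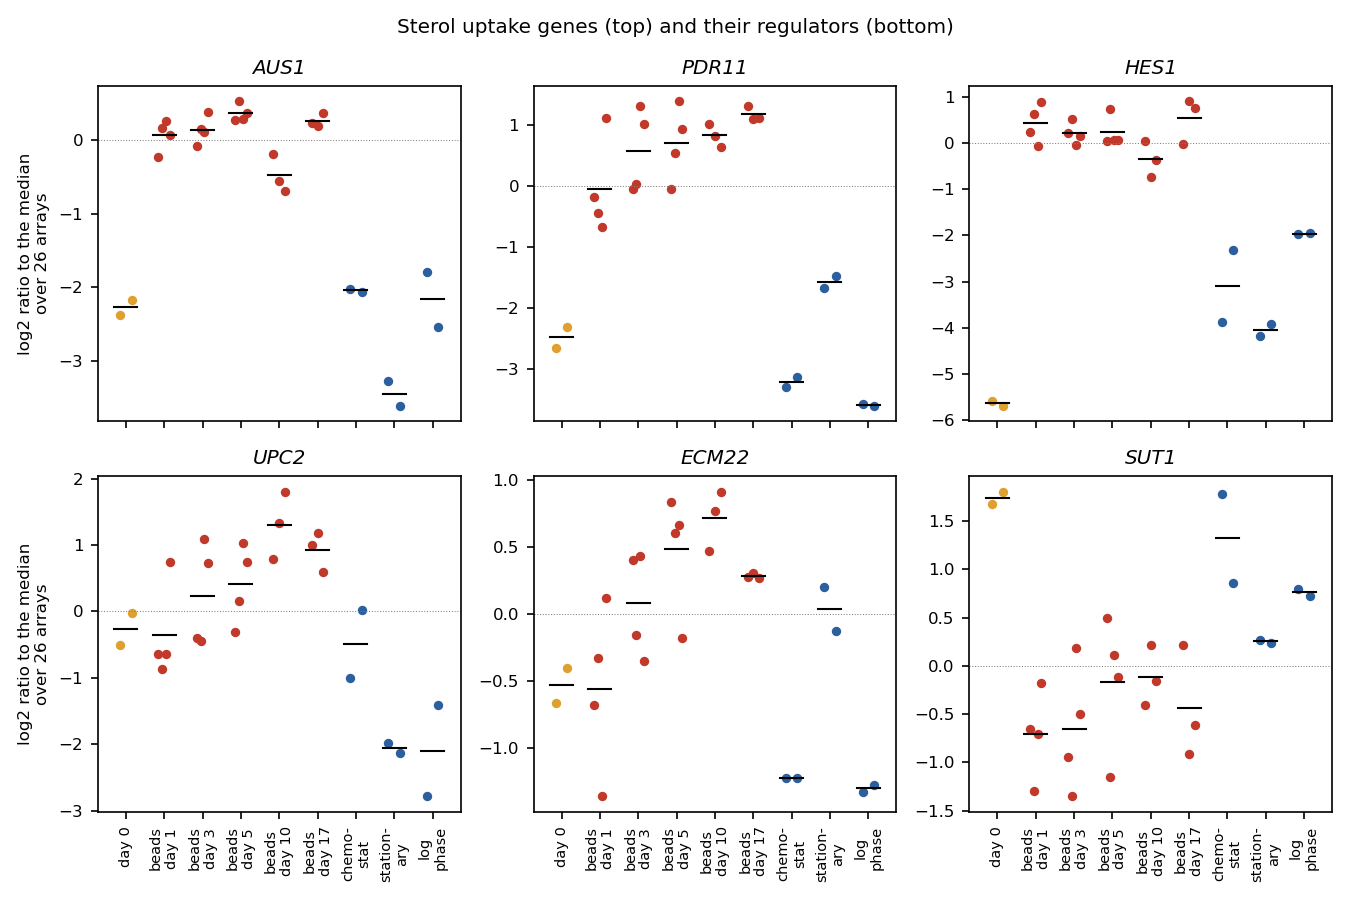
Log2 ratio on every array (points) and the group mean (bars) for AUS1, PDR11 and HES1 (top) and UPC2, ECM22 and SUT1 (bottom), with bead days in red, day 0 in yellow and free cells in blue; each panel has its own vertical scale. The bead points of the 3 uptake genes lie above all 6 free-cell points, and those of SUT1 lie at or below 0.49 (log2) while the log-phase points lie at 0.80 and 0.73.

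The free-cell states differed from each other in the uptake genes. In stationary phase AUS1 differed from log phase by -1.28 ± 0.24 and HES1 by -2.09 ± 0.41, both called lower, while PDR11 was called higher by 2.01 ± 0.49 (limma adjusted p = 0.00204). The call for AUS1 was lost without log-phase replicate 1, at -0.91, and that for PDR11 with quantile normalization repeated, at 0.71. Chemostat minus log phase gave 0.12 ± 0.24 for AUS1, 0.38 ± 0.49 for PDR11 and -1.14 ± 0.41 for HES1, with no call. The 2 chemostat arrays of HES1 lay far apart, and without chemostat replicate 2 its difference was -1.92 and called.

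The 5 enzymes that use molecular oxygen were close to their log-phase and chemostat values in beads. They are ERG1 (squalene epoxidase), ERG11 (the lanosterol demethylase of the cytochrome P450 family), ERG25 (a methyl sterol oxidase), ERG3 (a sterol desaturase) and ERG5 (a sterol desaturase of the cytochrome P450 family). Against log phase 0 of 5 were called by limma, beside 30.5% of all genes. Of the 5, 0 had an unadjusted limma p under 0.05, and the differences ran from -0.33 to -0.03. ERG11 ranged from -0.46 to 0.15 with a median of 0.02 in beads, against -0.08 and 0.08 in the chemostat, -1.93 and -1.29 in stationary phase, and -0.02 and 0.14 in log phase. Its difference from log phase had a 95% interval of -0.40 to 0.26, and that of ERG25 -0.49 to 0.28. The intervals were -0.73 to 0.16 for ERG3, -0.57 to 0.52 for ERG5 and -0.85 to 0.19 for ERG1. So a change of 1 or more of the bead mean in either direction lay outside the interval for each of the 5. The intervals are for the mean over the bead days and do not cover a single day. On day 10 ERG1 stood at -0.44, -0.85 and -1.58, against 0.00 and 0.32 in log phase. ERG11 stood at 0.04, -0.10 and -0.14 on that day. Against the chemostat the 5 differences ran from -0.32 to 0.12. Again 0 were called, beside 19.5% of all genes, and 0 lay under an unadjusted limma p of 0.05.

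Against stationary phase all 5 oxygen-requiring enzymes were called higher in beads, beside 11.8% of all genes, with a median difference of 2.05. ERG5 ranged from -1.16 to 0.79 with a median of 0.10 in beads, against -3.43 and -2.39 in stationary phase, and the groups did not overlap. It was higher by 2.90 ± 0.26 (limma adjusted p = 3.39e-08) and ERG1 by 2.41 ± 0.25. ERG3 rose by 2.05 ± 0.22, ERG25 by 1.69 ± 0.19 and ERG11 by 1.60 ± 0.16, each with no overlap. Bead arrays lay above both stationary-phase arrays in 20 of the 36 genes, or 55.6%, beside 11.7% of all genes. In stationary phase itself all 5 were called lower than in log phase, beside 21.7% of all genes. The median was -2.34 and the lowest value that of ERG5, -2.93 ± 0.35. Both comparisons use the same stationary-phase arrays.

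The electron carriers that serve these enzymes differed from each other. NCP1, the reductase that passes electrons to the cytochrome P450 enzymes, was 0.13 ± 0.24 from log phase and 0.43 ± 0.24 from the chemostat in beads, with no call, and was higher by 1.62 ± 0.24 than in stationary phase. CYB5, the cytochrome that can also donate electrons to sterol oxidation steps, ranged from -2.14 to 1.77 with a median of 0 in beads, against 0.29 and 0.58 in the chemostat, -2.49 and -1.10 in stationary phase, and 2.03 and 1.96 in log phase. Its bead arrays spread widely, and the highest still lay below both log-phase arrays. CYB5 fell by 2.03 ± 0.47 against log phase (limma adjusted p = 0.00132), a call lost with quantile normalization repeated. Against stationary phase it was higher by 1.76 ± 0.47, and by 1.06 with no call without stationary-phase replicate 1.

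The later enzymes that use no oxygen followed the oxygen-requiring ones in stationary phase. Of the 8, 7 were called higher in beads than in stationary phase, beside 11.8% of all genes. The same 7 were called lower in stationary phase than in log phase, beside 21.7% of all genes. Both comparisons use the same stationary-phase arrays. The exception both times was ERG7 (lanosterol synthase), at -0.09 ± 0.19 and -0.34 ± 0.25, whose values were 0.06 and 0.05 in stationary phase and 0.41 and 0.39 in log phase. ERG26, a sterol dehydrogenase of the demethylation complex, ranged from -1.38 to 1.58 with a median of 0.18 in beads, against -3.20 and -2.23 in stationary phase. It was higher in beads by 2.85 ± 0.32 (limma adjusted p = 7.52e-07). ERG28, the scaffold of that complex, rose by 2.33 ± 0.19, ERG4 (the last reductase of the route) by 2.06 ± 0.24 and ERG6 (the sterol methyltransferase) by 1.89 ± 0.22. ERG24 (a sterol reductase) rose by 1.67 ± 0.29, ERG27 (a keto sterol reductase) by 1.58 ± 0.20 and ERG2 (a sterol isomerase) by 1.08 ± 0.26. ERG2 lost its call without stationary-phase replicate 1, at 0.77.

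Against log phase ERG2 was the 1 of these 8 called, or 12.5%, beside 30.5% of all genes and 14.7% lower. It was lower by -1.12 ± 0.26. Its bead arrays ranged from -1.91 to 0.65 with a median close to 0, against 0.79 and 1.02 in log phase. Without day 10 in the bead mean its difference was -0.77, short of the fold minimum. A further 5 of the 8 had an unadjusted p under 0.05 and lay lower by less than 1. Against the chemostat ERG28 was the 1 called, or 12.5%, beside 19.5% of all genes and 9.55% higher. It ranged from -0.56 to 0.80 with a median of 0.06 in beads, against -1.23 and -0.97 in the chemostat. It was higher in beads by 1.12 ± 0.19, and by 0.99 without chemostat replicate 1. ERG28 was also the 1 gene of the 36 called between the chemostat and log phase, at -1.16 ± 0.25 (limma adjusted p = 0.0104), and that call was lost without any 1 of the 4 arrays involved.

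Of the 10 mevalonate genes 3 were called lower in beads against log phase, beside 14.7% of all genes. Against stationary phase 4 were called higher, beside 11.8%, and against the chemostat 1 was called lower, beside 9.94%. ERG13 (HMG-CoA synthase) ranged from -2.68 to 1.90 with a median of -0.16 in beads, against 0.93 and 0.76 in the chemostat, -1.66 and -0.99 in stationary phase, and 1.41 and 1.58 in log phase. The bead arrays reached above and below every free-cell state. ERG13 fell by 1.79 ± 0.43 against log phase (limma adjusted p = 0.00184). Its difference from the chemostat was -1.14 ± 0.43 (adjusted p = 0.0445), a call lost without either chemostat array (adjusted p = 0.274 and 0.179), without any 1 of 13 other arrays and without day 10, at -0.68.

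MVD1 (mevalonate pyrophosphate decarboxylase) ranged from -1.91 to 1.60 in beads, against 0.38 and 0.24 in the chemostat, -2.38 and -1.07 in stationary phase, and 1.44 and 1.76 in log phase. It was -1.75 ± 0.35 from log phase and 1.58 ± 0.35 from stationary phase, both called. ERG20 (farnesyl pyrophosphate synthase) was -1.03 ± 0.27 from log phase, with no overlap but close to the fold minimum. That call was lost without any 1 of 5 bead arrays, the smallest change being -0.97, and without day 10, at -0.83. Against stationary phase ERG10 (acetoacetyl-CoA thiolase) was higher by 1.18 ± 0.21, ERG20 by 1.15 ± 0.27 and HMG1 (HMG-CoA reductase) by 1.14 ± 0.33. Without stationary-phase replicate 1, ERG20 (0.93), MVD1 (0.92) and HMG1 (1.02, adjusted p = 0.123) lost these calls, and HMG1 also without replicate 2.

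The remaining mevalonate genes were not called in beads against any free-cell state. ERG9 (squalene synthase), which takes the last step before oxygen is needed, ranged from -0.79 to 0.50 with a median of 0.04 in beads, against -0.05 and 0.01 in log phase. ERG8 (phosphomevalonate kinase) was -0.35 ± 0.14 and ERG12 (mevalonate kinase) -0.93 ± 0.24 from log phase, both short of the fold minimum. In stationary phase against log phase both were called lower, ERG8 at -1.21 ± 0.19 and ERG12 at -1.20 ± 0.33. IDI1 (isopentenyl diphosphate isomerase) and HMG2, the other HMG-CoA reductase gene, were the 2 mevalonate genes with higher means in stationary phase than in log phase, by 0.24 ± 0.37 and 0.40 ± 0.39, with no call. IDI1 was -0.73 ± 0.28 in beads against stationary phase, the opposite sign to the 4 called genes, and was not called.

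**Figure D3:**
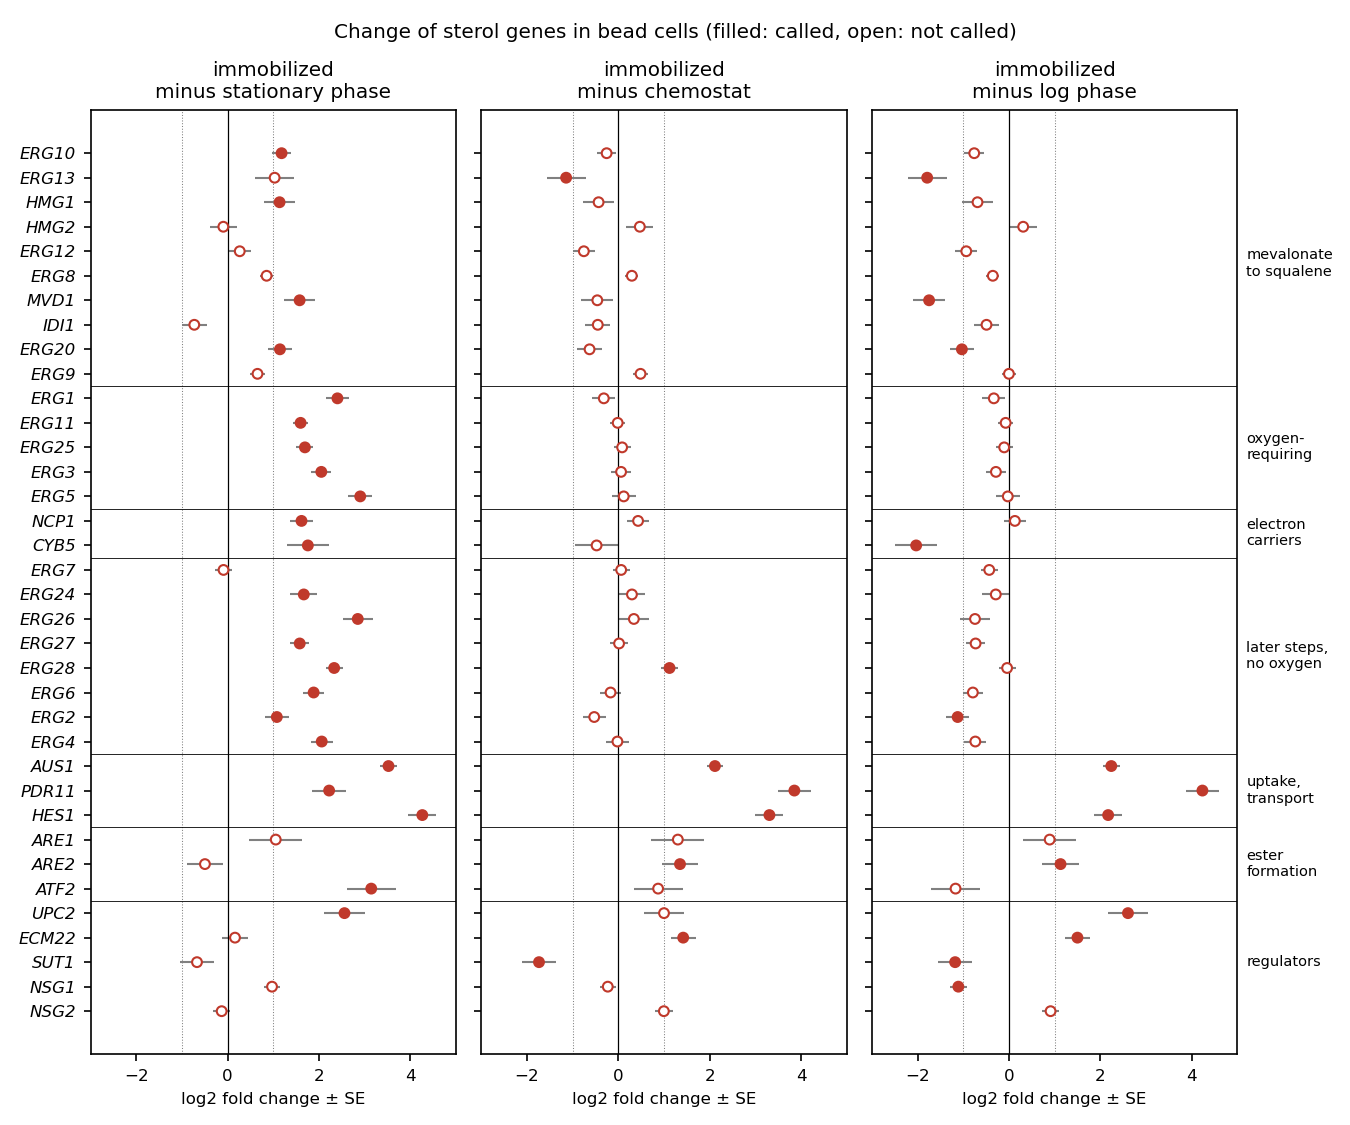
Log2 fold change ± SE of the 36 genes in beads minus stationary phase (left), minus the chemostat (middle) and minus log phase (right), with called genes filled and dotted lines at -1 and 1. AUS1, PDR11 and HES1 are filled in all 3 panels, and the 5 oxygen-requiring enzymes are filled against stationary phase only, with values from 1.60 to 2.90.

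The 5 regulators differed in direction. UPC2 ranged from -0.87 to 1.81 with a median of 0.73 in beads, against -1.01 and 0.02 in the chemostat, -1.98 and -2.13 in stationary phase, and -2.79 and -1.42 in log phase. It was higher in beads by 2.61 ± 0.44 than in log phase (limma adjusted p = 8.49e-05) and by 2.56 ± 0.44 than in stationary phase, with no overlap in either. Against the chemostat the difference was 1.00 ± 0.44 with a 95% interval of 0.09 to 1.92, and it was not called (adjusted p = 0.0823). With beads taken as the mean of days 10 and 17 it was 1.61 and called.

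ECM22 ranged from -1.36 to 0.91 with a median of 0.29 in beads, against -1.22 on both chemostat arrays, 0.20 and -0.13 in stationary phase, and -1.33 and -1.27 in log phase. It was higher by 1.50 ± 0.28 against log phase and by 1.42 ± 0.28 against the chemostat, both called. A single bead array, day 1 replicate 3, lay as low as the log-phase and chemostat arrays. Against stationary phase the difference was 0.16 ± 0.28, and stationary phase was itself higher than log phase by 1.34 ± 0.37, a call lost without stationary-phase replicate 1 (adjusted p = 0.0518).

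SUT1, a transcription factor named for its role in sterol uptake, ran the other way. It was called against log phase and the chemostat but not against stationary phase, at -0.67. It ranged from -1.35 to 0.49 with a median of -0.45 in beads, against 1.78 and 0.86 in the chemostat, 0.27 and 0.24 in stationary phase, and 0.80 and 0.73 in log phase. It was lower in beads by -1.18 ± 0.37 against log phase and by -1.74 ± 0.37 against the chemostat (limma adjusted p = 0.0122 and 0.00146). The first call was lost without either log-phase array (adjusted p = 0.109 and 0.0807) and the second without chemostat replicate 1 (adjusted p = 0.11). NSG1 and NSG2, which encode relatives of the mammalian INSIG proteins, parted. NSG1 was -1.11 ± 0.18 from log phase, called lower, and 0.97 ± 0.18 from stationary phase, not called. NSG2 was 0.91 ± 0.19 from log phase and 1.00 ± 0.19 from the chemostat, both just short of the fold minimum with adjusted p of 0.000593 and 0.000584.

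The 3 genes that esterify or acetylate sterols gave few calls in beads. ATF2, an alcohol acetyltransferase that also acetylates sterols, ranged from -1.53 to 1.72 with a median of 0.44 in beads, against -1.67 and 0.30 in the chemostat, -3.67 and -2.25 in stationary phase, and 1.23 and 1.49 in log phase. It was higher by 3.15 ± 0.54 in beads than in stationary phase, and -4.32 ± 0.72 in stationary phase against log phase, the lowest of the 36 in that comparison. ARE1 and ARE2, the sterol acyltransferases that make the esters of lipid droplets, differed in call. ARE2 was higher in beads by 1.13 ± 0.40 against log phase and 1.35 ± 0.40 against the chemostat. Each call was lost without either of the 2 free-cell arrays (adjusted p = 0.0783 and 0.227 against log phase, 0.134 and 0.114 against the chemostat). ARE1 was 0.89 ± 0.58 and 1.30 ± 0.58, with no call.

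Counted over the 36 genes, 13 were called in beads against log phase, 6 higher and 7 lower, or 36.1%, beside 30.5% of all genes tested, 15.9% higher and 14.7% lower. With quantile normalization repeated 5 were called, all higher, since CYB5, ERG13, MVD1, ERG2, ERG20, NSG1, SUT1 and ARE2 then missed the call. Against stationary phase 23 were called, all higher, or 63.9%, beside 26.3% of all genes in either direction and 11.8% higher. The median difference was 1.58. Without stationary-phase replicate 1, 18 were called. Against the chemostat 8 were called, 6 higher and 2 lower, or 22.2%, beside 19.5% of all genes, 9.55% higher and 9.94% lower, and 4 without chemostat replicate 1. Without the 3 arrays with a low dap spike the counts were 6 higher and 7 lower against log phase, 24 higher against stationary phase, with ERG13 added at 1.16, and 7 higher and 1 lower against the chemostat, where ERG13 (-1.01, adjusted p = 0.104) was lost and NSG2 (1.02) added.

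In stationary phase against log phase 29 of the 36 were called, 4 higher and 25 lower, or 80.6%, beside 44.5% of all genes, 22.8% higher and 21.7% lower. With quantile normalization repeated 19 were called, 0 higher and 19 lower. The 4 higher were PDR11, ARE2, ECM22 and NSG2. ARE2 (1.62 ± 0.54) lost its call without either stationary-phase array or log-phase replicate 2, and NSG2 (1.04 ± 0.26) without log-phase replicate 1. In the chemostat against log phase 1 was called, or 2.78%, beside 2.28% of all genes. An unadjusted limma p under 0.05, a looser threshold than that of this share, was reached by 12 of the 36, 1 higher and 11 lower. These comparisons share their log-phase arrays with the bead comparison above.

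At day 0 the later part of the route was lower than in log phase. Against log phase 20 of the 36 genes were called at day 0, 2 higher and 18 lower, beside 36.4% of all genes, 18.6% higher and 17.8% lower, and with quantile normalization repeated 0 were higher and 14 lower. The called genes held 5 of 5 oxygen-requiring enzymes, 7 of 8 later enzymes and 2 of 10 mevalonate genes, against 7 of 10 mevalonate genes called in stationary phase. All 10 mevalonate genes still had lower means at day 0 than in log phase. Their differences ran from -2.68 to -0.17 with a median of -0.73, and 6 had an unadjusted limma p under 0.05. Against stationary phase 8 of the 36 were called at day 0, 7 higher and 1 lower, beside 17.5% of all genes, 8.48% higher and 8.98% lower. They were HMG1, ERG20, ERG1, ERG27, AUS1, UPC2 and SUT1, all higher, and HES1, lower. HMG1 stood at -0.02 and 0.37 at day 0, against -1.45 and -1.22 in stationary phase. Both day 0 values of HMG1 lay above both stationary-phase values, a difference of 1.51 ± 0.45 that was no longer called without stationary-phase replicate 1 or 2 or day 0 replicate 2. Without day 0 replicate 2 a single one of the 36 was called against stationary phase, and with quantile normalization repeated 0 were. Both day 0 comparisons were added after the values had been seen.

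Between day 0 and day 1 the uptake genes, the oxygen-requiring enzymes, the electron carriers and all but one of the later enzymes rose, while 1 of 10 mevalonate genes, 1 of 3 ester or acetylation genes and 0 of 5 regulators were called higher. Of the 36, 21 were called on day 1 against day 0, 19 higher and 2 lower, or 58.3%. Of all genes 20.3% were called, 9.97% higher and 10.3% lower. The same 2 day 0 arrays serve here and in the comparisons of day 0 with log and stationary phase, so these results are not independent. HES1 stood at 0.23, 0.64, -0.05 and 0.88 on day 1, against -5.58 and -5.69 at day 0, and was higher by 6.06 ± 0.36 (limma adjusted p = 1.07e-10). AUS1 stood at -0.22, 0.17, 0.27 and 0.07 on day 1, against -2.37 and -2.17 at day 0, and PDR11 at -0.18, -0.44, -0.68 and 1.12, against -2.65 and -2.30. Neither gene overlapped between the days, as was the case for 23 of the 36 higher on day 1, or 63.9%, beside 20.8% of all genes. The differences were 2.34 ± 0.21 and 2.43 ± 0.43.

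The 5 oxygen-requiring enzymes were all called higher on day 1, by 1.49 to 3.01. ERG5 stood at 0.39, 0.51, 0.03 and -0.23 on day 1, against -2.84 and -2.85 at day 0. Both electron carriers and 7 of the 8 later enzymes were called higher too, ERG4 by 2.94 ± 0.28 and CYB5 by 3.11 ± 0.54. ERG7 was again the exception, at 0.37 ± 0.22. Of the 10 mevalonate genes 1 was called, MVD1, at 1.93 ± 0.40, and 5 had an unadjusted p under 0.05. The 2 called lower were SUT1, at -2.45 ± 0.43, with -0.65, -1.30, -0.71 and -0.18 on day 1, against 1.68 and 1.81 at day 0, and ARE2, at -1.85 ± 0.47. ARE2 lost its call without day 0 replicate 2 (adjusted p = 0.0544), and NCP1, at 1.12 ± 0.28, likewise (adjusted p = 0.0548). ATF2, at 2.25 ± 0.62, lost it without day 0 replicate 1, at 1.30, and ERG27, at 1.02 ± 0.24, without day 0 replicate 1 or day 1 replicate 1 or 2, at 0.93. UPC2 differed by -0.09 ± 0.51 and ECM22 by -0.03 ± 0.32, and neither was called. UPC2 stood at -0.65, -0.87, -0.63 and 0.74 on day 1, so 1 array lay apart. With SEs of this size a change in either factor is not excluded.

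Over the days in beads 12 of the 36 genes were called by limma's F-test across days 1, 3, 5, 10 and 17 with a range of day means of at least 1, beside 20.9% of all genes. The 12 were ERG10, ERG13, ERG12, MVD1, ERG20, ERG1, ERG5, CYB5, ERG26, ERG27, ERG2 and ECM22. ERG13 had the widest range among them, 3.09 between day means, followed by CYB5 at 2.24 and MVD1 at 2.23. ERG11, at 0.16, and NSG1, at 0.19, had the narrowest ranges of the 36. The count was 4 without day 10 replicate 2 and 3 without the 3 arrays with a low dap spike. The uptake genes had ranges from 0.85 to 1.22 and none was called, though AUS1 had an adjusted p of 0.0172.

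Day 10 was set against the mean of the other days. Against the mean of days 1, 3, 5 and 17, a comparison chosen after the values had been seen and which therefore serves as a description, 8 of the 36 genes were called at day 10, 2 higher and 6 lower, beside 15.3% of all genes, 6.92% higher and 8.37% lower. Of the 12 genes called among the days, 6 were also called at day 10, ERG13, ERG2, CYB5, ERG26, MVD1 and ERG20. Without the 3 arrays with a low dap spike 6 were called, 0 higher and 6 lower, and with quantile normalization repeated 0 higher and 5 lower. ERG13 stood at 1.90, 1.18, 1.07 and -0.38 on day 1 and at -0.11, -0.59, -0.54 and 0.92 on day 5, then at -1.23, -2.53 and -2.68 on day 10 and at -0.17, -0.77 and -0.72 on day 17. All 3 day 10 arrays lay below every other bead array of ERG13, a difference of -2.32 ± 0.36.

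ERG2 behaved alike, with -1.11, -1.91 and -1.88 on day 10, against 0.33, -0.01 and 0.05 on day 17, and a difference of -1.77 ± 0.22 from the other days. CYB5 (-1.91 ± 0.40), ERG26 (-1.44 ± 0.28) and MVD1 (-1.54 ± 0.29) were lower as well. ERG20, at -1.03 ± 0.22, lost its call without any 1 of 6 arrays. The 2 higher at day 10, ATF2 (1.37 ± 0.46) and UPC2 (1.01 ± 0.37), lost theirs without day 10 replicate 2 or 3, and UPC2 also without 8 other bead arrays and with array weights. No other bead array reached down to the day 10 arrays in ERG13, ERG2, CYB5, ERG26 and, by a narrow gap, ERG20, while MVD1 overlapped with day 17. In 8 of the 36 genes, or 22.2%, the day 10 arrays lay below all other bead arrays, beside 9.83% of all genes. ERG11 and ERG25 differed at day 10 by -0.07 ± 0.13 and 0.14 ± 0.16, so the oxygen-requiring enzymes were not uniform. Of the 5, 0 were called and 3 were lower at an unadjusted limma p under 0.05, with a median of -0.54 over the 5. ERG1, at -0.99 ± 0.21, was just short of the fold minimum.

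**Figure D4:**
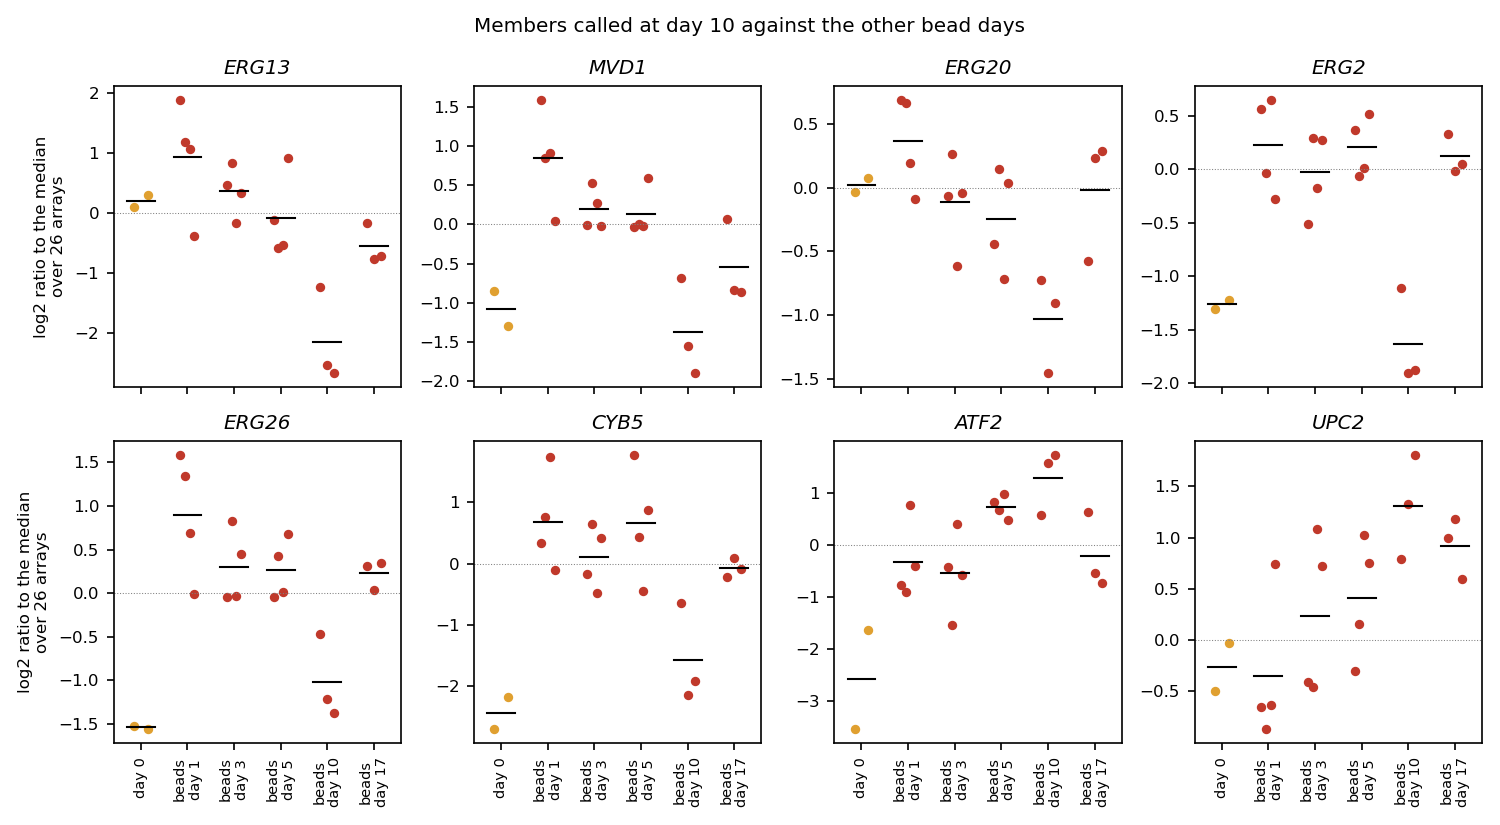
Log2 ratio on every array of day 0 (yellow) and of bead days 1 to 17 (red), with the day mean as a bar, for the 8 genes called at day 10; each panel has its own vertical scale. The 3 day 10 points of ERG13, ERG2, CYB5 and ERG26 lie below all other bead points, and those of ATF2 and UPC2 overlap with other days.

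Between day 17 and day 1 limma called 0 of the 36 genes, beside 0.294% of all genes, 0.257% higher and 0.0367% lower. An unadjusted p under 0.05, a looser threshold than that of these shares, was reached by 8 of the 36, 4 higher and 4 lower. MVD1 (-1.40 ± 0.36) and ERG13 (-1.50 ± 0.44) had the lowest differences, and UPC2 (1.27 ± 0.45) and PDR11 (1.22 ± 0.38) the highest. The count of 0 was not stable. Without day 1 replicate 4 it was 6, with PDR11 at 1.61 and UPC2 at 1.64, and without day 17 replicate 1 it was also above 0. It was 6 with array weights, 6 with bead replicates 1 and 2 alone and 3 with the replicate number as a block.

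Bead replicates 3 and 4 both stood above replicates 1 and 2 in 11 of the 36 genes on day 3 and 10 on day 5, and both below in 3 and 1. On day 1 they stood above in 7 and below in 9. The labels do not say what a replicate number marks. PDR11 had -0.04, 0.04, 1.31 and 1.01 on day 3 and -0.04, 0.54, 1.39 and 0.94 on day 5, in replicate order. UPC2 had -0.41, -0.45, 1.09 and 0.73 on day 3, and HMG2 -0.54, -0.41, 0.70 and 0.70 on day 5. IDI1 ran the other way, with 0.89, 0.06, -0.27 and -0.26 on day 3. ARE1 parted most, with -0.58, -1.86, 1.08 and 1.20 on day 1. With beads limited to replicates 1 and 2, ARE1 on day 1 minus day 0 was -1.08 and called, and with replicates 3 and 4 it was 1.28 and called, against 0.10 ± 0.67 over all 4. The 3 uptake genes were called against all 3 free-cell states with replicates 1 and 2 alone and with replicates 3 and 4 alone.

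The list holds 5 pairs of related genes, and the difference within a pair was tested on each array in the same fit, adjusted over all rows. Over 5 comparisons 11 of the 25 tests were called. The comparisons between free-cell states follow from those of beads by subtraction, so the 25 tests are not independent of each other. AUS1 rose less than PDR11 against log phase, by -2.00 ± 0.38, and against the chemostat, by -1.74 ± 0.38, and more than PDR11 against stationary phase, by 1.30 ± 0.38. In stationary phase against log phase the same pair parted by -3.30 ± 0.51. These 4 calls were lost with quantile normalization repeated, as were both of HMG2 minus HMG1 and that of NSG2 minus NSG1 against stationary phase given next, so that 4 of the 11 were left. The calls of AUS1 minus PDR11 against the chemostat and stationary phase also without chemostat replicate 1 (-1.64) and stationary-phase replicate 2 (1.03). UPC2 rose more than ECM22 against stationary phase, by 2.40 ± 0.46, while its excess over log phase was 1.11 ± 0.46 and not called (limma adjusted p = 0.0504). NSG2 and NSG1 parted by 2.02 ± 0.28 against log phase, 1.23 ± 0.28 against the chemostat, -1.10 ± 0.28 against stationary phase and 3.12 ± 0.38 in stationary phase against log phase. HMG2 minus HMG1 was -1.23 ± 0.31 against stationary phase and 2.23 ± 0.42 in stationary phase against log phase. Without stationary-phase replicate 1 the calls of NSG2 minus NSG1 (-1.02) and HMG2 minus HMG1 (-1.08) against stationary phase were lost, and without chemostat replicate 1 that of NSG2 minus NSG1 against the chemostat (1.10). ARE1 and ARE2 were not called apart in any of the 5 comparisons, with differences from -1.79 to 1.55.

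**Figure D5:**
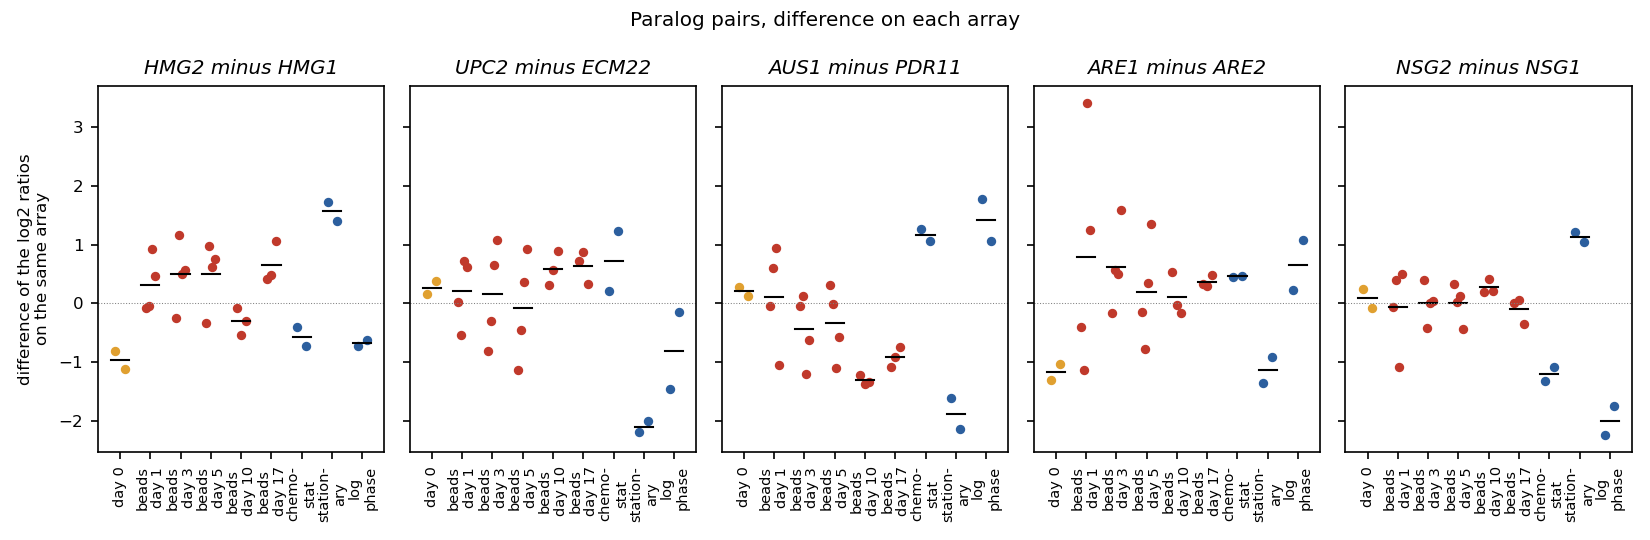
Difference of the log2 ratios of 2 related genes on the same array (points) with the group mean (bar), for 5 pairs and all 9 groups, with bead days in red, day 0 in yellow and free cells in blue. AUS1 minus PDR11 lies above 1 in the chemostat and log phase and below -1 in stationary phase, and the ARE1 minus ARE2 points spread most on day 1.

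A further list of 42 genes tied to sterols, haem or low oxygen, none of them among the 36, was counted in the same fit, and 40 of its genes were measured. In beads 8 of the 40 were called against log phase, 6 higher and 2 lower, or 20%, beside 30.5% of all genes. Against stationary phase 18 were called, 14 higher and 4 lower, or 45%, beside 26.3%, and against the chemostat 4, 3 higher and 1 lower, or 10%, beside 19.5%. TIR1, a cell wall mannoprotein gene expressed without oxygen, was higher in beads by 3.88 ± 0.18 against stationary phase and by 2.09 ± 0.18 against the chemostat, and by 0.96 ± 0.18, short of the fold minimum, against log phase. HEM13, whose haem synthesis enzyme uses oxygen, was higher by 2.40 ± 0.31 against stationary phase, and stood at -0.62 ± 0.31 from log phase and 0.34 ± 0.31 from the chemostat with no call. PRY1, a secreted sterol-binding protein gene, rose by 2.93 ± 0.38 against stationary phase, and YEH1, a steryl ester hydrolase gene, by 2.30 ± 0.39 against stationary phase and 1.15 ± 0.39 against log phase. The other named changes against log phase were SRT1 at 1.38 ± 0.41, SPT23 at 1.20 ± 0.20 and OSH6 at -1.13 ± 0.25, and against the chemostat PRY2 at -1.52 ± 0.44, MGA2 at 1.22 ± 0.18 and YEH1 at 1.05 ± 0.39.

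Between the other states the same list gave 20 called of 40 in stationary phase against log phase, 8 higher and 12 lower, or 50% beside 44.5% of all genes, led in size by HEM13 (-3.02 ± 0.41), TIR1 (-2.92 ± 0.24), HMX1 (2.57 ± 0.54) and PRY2 (-2.26 ± 0.60). In the chemostat against log phase 1 was called, TIR1, at -1.13 ± 0.24, or 2.5% beside 2.28%. On day 1 against day 0, 9 were called, 7 higher and 2 lower, or 22.5% beside 20.3%, led by TIR1 at 5.19 ± 0.21, with HMX1, the haem oxygenase gene, at -2.42 ± 0.47, HEM13 at 2.37 ± 0.35 and MGA2 at 2.04 ± 0.21. Between day 17 and day 1 limma called 0 of the 40, beside 0.294% of all genes, and 5 had an unadjusted p under 0.05.

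At day 0 against log phase 11 of the 40 were called, 5 higher and 6 lower, or 27.5% beside 36.4% of all genes, led by TIR1 (-4.13 ± 0.24), HMX1 (2.75 ± 0.54), HEM13 (-2.73 ± 0.41) and SRT1 (1.95 ± 0.55). Against stationary phase 6 were called at day 0, 4 higher and 2 lower, or 15% beside 17.5%, led by ERG29 (1.31 ± 0.35), KES1 (1.30 ± 0.27), DAP1 (-1.28 ± 0.25) and BTS1 (1.28 ± 0.28). At day 10 against the other days 6 were called, 2 higher and 4 lower, or 15% beside 15.3%, led by MOT3, a repressor gene of the hypoxic response, at 1.68 ± 0.32, the steryl ester hydrolase gene TGL1 at -1.42 ± 0.26, OSH6 at -1.35 ± 0.21 and RER2 at 1.23 ± 0.22. Among the days 6 were called, or 15% beside 20.9%, and the same 4 genes had the widest ranges of day means among them, from 1.46 to 1.94.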

How the data were processed

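RNA of 26 samples in 9 groups was measured on Affymetrix arrays of 10928 probe sets. The deposited values are linear ratios that the authors made after RMA, per the submitters' processing notes. Medians per probe set run from 0.9905 to 1.047, so a ratio is relative to the probe set's own median and keeps no absolute level. Precision is limited by the number of arrays, which give no counts. Groups were taken from the labels, and 0 columns belonged to other samples.

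Log2 of the deposited ratio was computed with no pseudocount. Probe sets of 1 S. cerevisiae gene were used, the one with the highest mean ratio where a gene had several, and 5445 genes had values on all arrays. The model had 9 group means in limma 3.58.1 (R 4.3.3), two-sided, with Benjamini-Hochberg adjustment over all genes, an adjusted p threshold of 0.05 and a log2 fold minimum of 1. All 36 genes are reported, and of the further list the 4 called genes with the largest changes per comparison. The members and lists were chosen with earlier results of these data known. The script was tested on simulated data. Figures were drawn with matplotlib.

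Replicate numbers were checked for pairing. Deviations of equal numbers correlated at -0.022 between stationary and log phase and 0.0073 between chemostat and log phase, and at 0.094, 0.26 and -0.16 between days 17 and 1. They reached 0.55 to 0.86 between days 5 and 3. Between days 3 and 1 and days 5 and 1 they ran from -0.15 to 0.76. The numbers of days 3 and 5 thus go together while those of the other groups do not all do so. The planned fit without a block is reported, with the block as an alternative. The planned fit treats all arrays as independent, so the SEs of bead means and the F-test among the days ignore this link. The block gives a replicate number the same effect in every group, so it cannot settle what the link does to the calls. Alternatives covered repeated quantile normalization, median shifts, array weights, another prior, only the groups compared, other bead means, no fold minimum, replicate subsets and each array left out. No sequences were analysed here.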

Additional observations from a re-analysis of the deposited data

Results flagged for a closer look

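The 36 genes were searched on days 1, 3 and 5, the groups of 4 arrays, for a sample far from the others of its group, in 108 combinations of gene and day. Such a sample was found in 9, where chance gives about 1 in 20. Day 1 replicate 2 was low for HMG2 (-0.30, next 0.26), ERG3 (-0.50, next 0.06) and NCP1 (-0.55, next 0.31). Day 3 replicate 1 was low for ERG12 (-0.18, next 0.17) and ERG4 (-0.48, next 0.13). Day 5 replicate 4 was high for MVD1 (0.60, next 0) and ERG6 (0.16, next -0.02). Day 5 replicate 2 was high for HES1 (0.74, next 0.07), and day 1 replicate 4 was high for UPC2 (0.74, next -0.63). These are log2 ratios. Leaving out the array concerned left HES1 called higher in beads against all 3 free-cell states.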

How the results depend on the processing

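The count of called genes among the 36 was compared under each alternative with the count in the report, and no value called in the report changed sign under any of them. ARE1 on day 1 minus day 0, not called in the report, was called at -1.08 with replicates 1 and 2 and at 1.28 with replicates 3 and 4. Repeating the quantile normalization, which gives every array the same spread of log2 ratios, had the widest reach. As an SD over genes the deposited spread was 0.38 to 0.879 on the 18 bead arrays and 0.81 to 1.14 on the other 8. The median behind each ratio is over 26 arrays, 18 of them of beads. Repeating the normalization widened the narrowest arrays, of beads, and narrowed the widest, of other cells. Its part in each lost call was not tested. It gave 5 genes in beads against log phase, 5 against the chemostat, 19 in stationary phase against log phase, 0 in the chemostat against log phase, 0 at day 0 against stationary phase, 1 on day 17 against day 1, 5 at day 10, 5 among the days, and 4 pairs. Over all genes it called 516 in place of 1662 in beads against log phase, 562 in place of 1431 against stationary phase, 557 in place of 1061 against the chemostat and 623 in place of 2421 in stationary phase against log phase. Array weights gave 7 in the chemostat against log phase, 6 on day 17 against day 1 and 19 among the days. Fitting only the groups compared gave 4 in the chemostat against log phase. Dropping the fold minimum gave 20 in beads against log phase and 22 at day 10. Bead replicates 1 and 2 alone gave 2 in the chemostat against log phase and 6 on day 17 against day 1, and replicates 3 and 4 alone gave 1 among the days. Without the 3 arrays with a low dap spike 3 were called among the days.

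The replicate number as a block gave 3 genes on day 17 against day 1, in place of 0. With the block 13 were called in beads against log phase, 24 against stationary phase, 8 against the chemostat, 29 in stationary phase against log phase, 1 in the chemostat against log phase, 20 on day 1 against day 0, 9 at day 10, 14 among the days and 11 pairs, within 1.5 times the counts without it. Single calls still moved: ERG13 against the chemostat was -0.95 and ERG20 against log phase -0.95, both no longer called, and ATF2 against log phase was -1.35 and called.

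Leaving out each array in turn gave 12 to 14 genes in beads against log phase, 18 to 24 against stationary phase, 4 to 9 against the chemostat, 27 to 29 in stationary phase against log phase, 0 to 1 in the chemostat against log phase, 19 to 22 at day 0 against log phase, 1 to 10 at day 0 against stationary phase, 19 to 23 on day 1 against day 0, 0 to 6 on day 17 against day 1, 6 to 11 at day 10, 4 to 16 among the days and 9 to 14 pairs. Where that left a group with 1 array, the array was assumed to vary like the other groups. Groups of 2 arrays limit the free-cell values, and the ratio scale hides which genes lie near background. The cause of each shift was not tested, except that a fit with fewer arrays or groups holds less data. The comparisons of day 0 with free cells and of day 10 with the other days were chosen after seeing the data.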
